A study of Mus musculus with 24 samples.

Results

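The pyruvate dehydrogenase complex and the enzymes that switch it were followed here as 10 genes: the catalytic and structural subunits Pdha1, Pdhb, Dlat, Dld and Pdhx, the kinases Pdk1, Pdk2, Pdk3 and Pdk4, and the phosphatase Pdp1. Members were every probe set annotated to one of these genes alone, 19 of the 45265 probe sets on both array designs and 10 of the 12851 genes with a tested probe set. RNA came from C2C12 cells, a mouse myoblast line that fuses into myotubes when serum is withdrawn, in 12 cultures: 3 in DM with 5 mM glucose, 3 in DM with 25 mM, 3 in GM with 5 mM and 3 in GM with 25 mM, each hybridised to an MA and an MB array. The labels name the media by these letters, which for C2C12 usually mean differentiation medium (DM) and growth medium (GM), and they give no time in culture and no other component or agent. The series asks whether calorie restriction alters how muscle precursors differentiate, and the labels offer glucose as the nutrient varied.

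The complex sits in the mitochondrial matrix and joins glycolysis to the citric acid cycle by turning pyruvate into acetyl-CoA. Kinases of the Pdk family attach phosphate to the Pdha1 subunit and so shut the complex down, and pyruvate dehydrogenase phosphatases remove it. In muscle the balance between both sets whether pyruvate is oxidised or leaves as lactate, and Pdk4 is well known to be induced there by fasting, fatty acids and glucocorticoids. Array data report transcript levels only and carry no measure of phosphorylation or of complex activity.

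Of the 19 probe sets, 18 had a mean intensity above the 40th percentile of their design and were tested. Every one of the 10 genes had at least 1 tested probe set, and its brightest one, with MA preferred, is used as its main probe set below: 8 lay on MA and 2, for Pdhx and Pdp1, on MB. Values are deposited linear intensities. Differences are on the scale of log2(intensity + 20), which understates the change of dim probe sets, and calls are limma tests of all 27081 tested probe sets at a p under 0.05 after Benjamini-Hochberg adjustment within each array design.

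Markers were read to check the labelled cells. All 6 markers of differentiated muscle were higher in DM at both glucose levels, and their intensities summed to between 19830 and 44030 per culture in DM and between 79.8 and 216.3 in GM. The 5 myoblast markers summed to between 4938 and 6564 in DM and between 3569 and 4196 in GM, and 2 of them, Des and Cdh15, were higher in DM (1.24 and 1.26 at 25 mM, 1.02 and 1.57 at 5 mM), while Myod1 and Myf5 were not called. The remaining one, Mki67, which marks dividing cells, was lower in DM, by -1.56 (SE 0.13) at 25 mM and -2.60 (SE 0.13) at 5 mM, and it was also lower in DM with 5 mM than with 25 mM (-0.92, SE 0.13, limma adjusted p = 0.00148). In such bulk RNA, fewer cells of a type and less RNA per cell cannot be told apart. Summed over the 5 of 6 adipocyte markers on the arrays, intensities lay between 72.9 and 143.6 in DM and between 320.4 and 416.2 in GM, with Cebpa the 1 marker tested (lower in DM, -1.91 at 25 mM and -2.04 at 5 mM), while Adipoq and Lep did not pass the filter and Lep read at most 12.5. The 4 of 5 blood and endothelial markers summed to between 61.1 and 118.2 in DM and between 129.1 and 229.3 in GM. Cd14, the 1 of them tested, was lower in DM (-1.51 at 25 mM and -1.05 at 5 mM). Osteoblast markers, 3 of 4, summed to between 71.4 and 243.3 in DM and between 87.5 and 299 in GM, with 0 of the 2 tested called. The part of these cell types in the results below was not tested.

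Cultures also divided by a control probe set for 18S ribosomal RNA in a way that no label accounts for. On MA it read 23.0 to 48.2 in 4 cultures, called low-18S here (replicate 2 of DM at 5 mM, replicate 3 of DM at 25 mM, and replicates 1 and 2 of GM at 5 mM), and 279 to 1267 in the other 8. Within groups, the log2 difference of low-18S minus high-18S cultures was 0.84 (SE 0.17) for Pdp1, 0.50 (SE 0.16) for Pdhx, 0.49 (SE 0.17) for Pdk3, 0.43 (SE 0.19) for Pdk2 and -0.36 (SE 0.15) for Pdha1, against 0.06 (SE 0.14) for Pdk4 and 0.11 (SE 0.06) for Pdhb. For the main probe sets of Dld and Dlat it was 0.30 (SE 0.12) and 0.30 (SE 0.16). For several results below, values are also given with the 18S class as a block or from the 8 high-18S cultures alone.

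**Figure D1:**
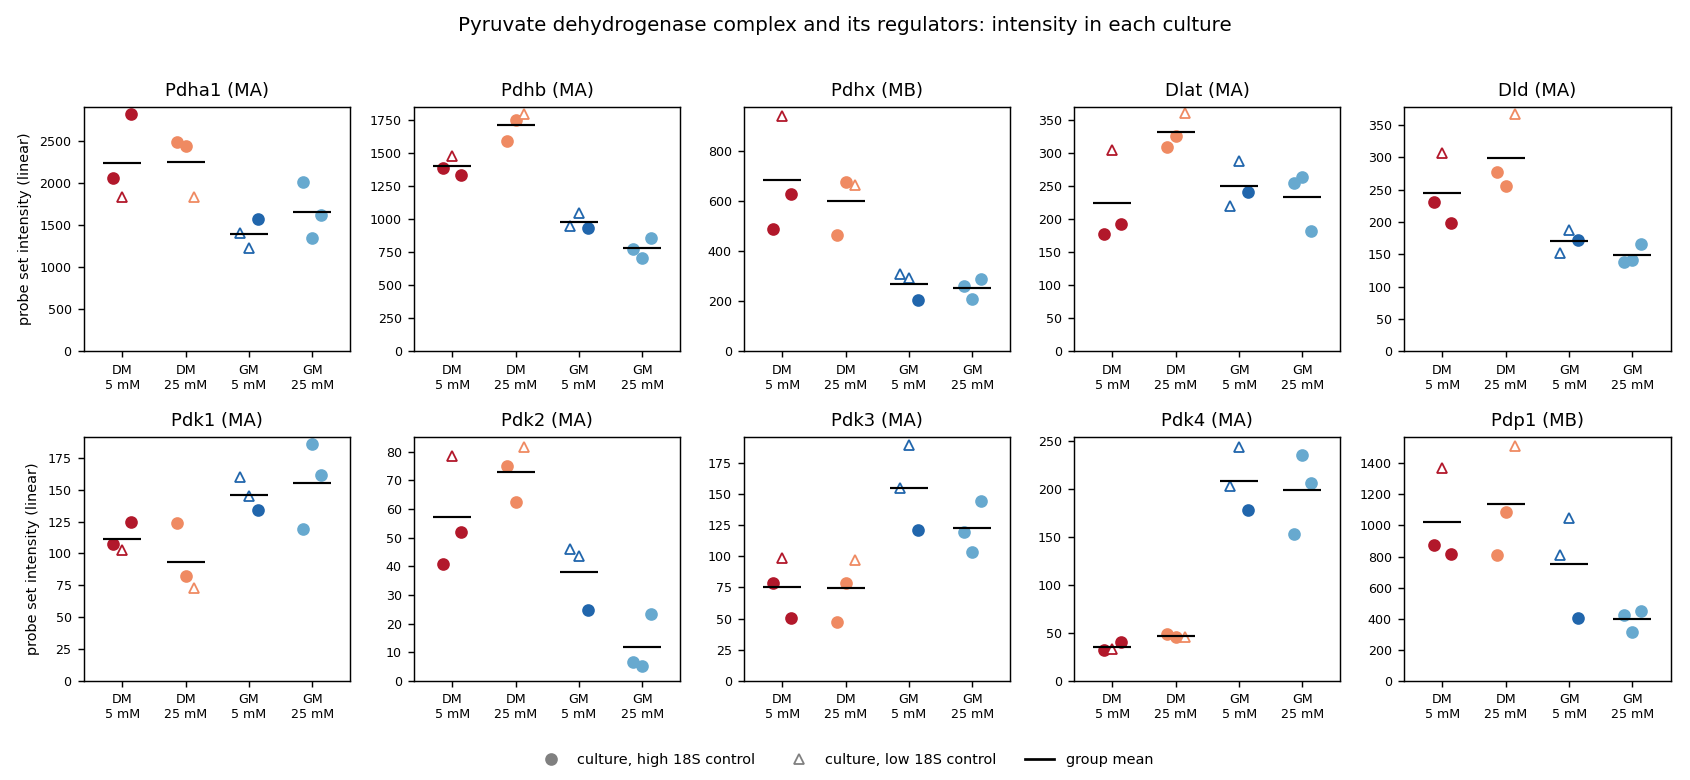
Intensity of the main probe set of each member in each of the 12 cultures (linear axis from 0, array design in brackets); circles are cultures with a high and open triangles cultures with a low 18S control, and lines are means of 3 cultures. Pdk4 lies at 32.5 to 49.1 in DM cultures and at 153.1 to 244.0 in GM cultures, while Pdhb, Pdhx and Dld are higher in every DM culture than in any GM culture.

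The change of medium moved members in both directions at both glucose levels. At 25 mM, 5 of the 10 genes rose in DM (Pdhb, Pdhx, Dld, Pdk2 and Pdp1) where 9.83% of all tested probe sets rose, and 2 fell (Pdk1 and Pdk4) where 11.5% fell. At 5 mM, 3 rose (Pdha1, Pdhb and Pdhx; 7.52% of all probe sets) and 2 fell (Pdk3 and Pdk4; 10.1%). Those shares count probe sets, not genes. Counted alike, 6 of the 18 tested member probe sets rose and 2 fell at 25 mM. At 5 mM 4 of the 18 rose and 2 fell, so the falls were near the share over all probe sets at both glucose levels. The median log2 difference of the 10 genes was 0.70 at 25 mM and 0.43 at 5 mM, beside -0.09 and -0.03 over all tested probe sets. With arrays centred on their medians, 7 of the 10 rose and 1 fell at 25 mM, and 3578 of the 5469 probe sets called among all tested were higher, beside 2663 of 5774 without centring.

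Pdha1 and Pdhb encode the alpha and beta chains of the first enzyme, which decarboxylates pyruvate. Pdhb (Entrez 68263, chromosome 14, 8165991 to 8173303, GRCm38.p6) read 1590, 1746 and 1793 in DM at 25 mM, against 773, 703 and 858 in GM at 25 mM. At 5 mM it read 1384, 1480 and 1331 in DM, against 950, 1043 and 929 in GM. The DM cultures lay above the GM cultures at both glucose levels, and the rise was 1.12 (SE 0.12, limma adjusted p = 4.52e-06) at 25 mM and 0.51 (SE 0.12, adjusted p = 0.00432) at 5 mM, called in each of the alternatives tried. A second Pdhb probe set was at 6.54 to 38.0 in all cultures, failed the filter and was not tested.

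Pdha1, the chain that the kinases phosphorylate, has a pair of tested probe sets on MA. The brighter read 2488, 2447 and 1832 in DM at 25 mM, against 2015, 1343 and 1627 in GM at 25 mM, where the groups overlapped, and 2062, 1833 and 2829 in DM at 5 mM, against 1403, 1225 and 1579 in GM at 5 mM, where they did not. Its difference was 0.44 (SE 0.20, adjusted p = 0.0941) at 25 mM and 0.65 (SE 0.20, adjusted p = 0.0215) at 5 mM. The dimmer probe set read 666, 793 and 779 in DM at 25 mM, against 394, 335 and 438 in GM at 25 mM, and was called at both glucose levels, at 0.91 (SE 0.15, adjusted p = 0.000275) and 0.68 (SE 0.15, adjusted p = 0.00301). The brighter one passed at 25 mM with the 18S block (0.56, adjusted p = 0.00501), from the high-18S cultures alone (0.58, adjusted p = 0.0171) without replicate 3 of DM at 25 mM (adjusted p = 0.0440), with median centring (0.0199) and with array weights (0.0273), and its adjusted p ranged from 0.00501 to 0.314 over the alternatives. At 5 mM its call was lost without replicate 3 of DM (adjusted p = 0.106), replicate 1 of GM (0.0584) or replicate 2 of GM (0.0915) and from the high-18S cultures alone (0.0820), in a range of 0.00165 to 0.106.

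Pdhx, the protein that tethers the third enzyme to the core (Entrez 27402, chromosome 2, 103021055 to 103073513), read 466, 677 and 663 in DM at 25 mM, against 259.8, 210.3 and 288 in GM at 25 mM. In DM at 5 mM it read 487, 938.5 and 628.5, against 307, 292.5 and 203 in GM at 5 mM. Every DM culture was above every GM culture, and the rises of 1.18 (SE 0.27, adjusted p = 0.00767) and 1.26 (SE 0.27, adjusted p = 0.00511) passed at both glucose levels. With the 18S block they were 1.02 (adjusted p = 0.00553) and 1.43 (adjusted p = 0.000276), in ranges of 0.00431 to 0.0467 and 0.000276 to 0.0735 over the alternatives. The call at 5 mM was lost from the high-18S cultures alone (1.36, adjusted p = 0.0735), which leave a single GM culture at 5 mM, assumed to vary like the rest.

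Dld encodes dihydrolipoamide dehydrogenase, the third enzyme, which the complex shares with other 2-oxoacid dehydrogenases. Its MA probe set read 277, 255 and 366 in DM at 25 mM, against 137.4, 141.5 and 165.7 in GM at 25 mM. In DM at 5 mM it read 230.2, 307 and 198.8, against 151.6, 187.2 and 172.2 in GM at 5 mM. The groups did not overlap at either glucose level, and the difference was 0.91 (SE 0.17, adjusted p = 0.000825) at 25 mM and 0.46 (SE 0.17, adjusted p = 0.0576) at 5 mM. At 5 mM it passed with the 18S block (0.56, adjusted p = 0.00645), without replicate 3 of DM at 5 mM (0.0303) and without replicate 3 of DM at 25 mM (0.0404), and with quantile normalization (0.0210), median centring (0.0493) or array weights (0.0203), in a range of 0.00645 to 0.412. From the high-18S cultures alone it was smaller and did not pass (0.28, adjusted p = 0.412). The MB probe set of Dld read lower in DM at 25 mM (35.5, 32.7 and 43.1, against 48.9, 278.5 and 97.6 in GM). This difference of -1.24 (SE 0.57, adjusted p = 0.260) did not pass. At 5 mM it gave 0.63 (SE 0.57, adjusted p = 0.702), so the probe sets of this gene disagree in sign at 25 mM only. The MB one passed the filter of its design, 63.7, through the 278.5 of replicate 2 of GM at 25 mM.

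Dlat, the second enzyme, carries the lipoyl arms that pass the acetyl group on. Its brightest probe set read 309.6, 326.3 and 361.1 in DM at 25 mM, against 254, 264 and 182.5 in GM at 25 mM, and 177.3, 305.3 and 193.0 in DM at 5 mM, against 221, 288 and 241 in GM at 5 mM. DM was above GM at 25 mM only, and neither difference passed, with 0.49 (SE 0.19, adjusted p = 0.0587) at 25 mM and -0.17 (SE 0.19, adjusted p = 0.573) at 5 mM. Without replicate 2 of DM at 5 mM, which shares the spread estimate, the 25 mM difference passed (adjusted p = 0.0215), as it did with median centring (0.0129), the replicate block (0.0467), array weights (0.0465) and only the arrays compared (0.0347), in a range of 0.0129 to 0.226. With the 18S block the 25 mM difference was 0.39 (limma adjusted p = 0.0734). The other probe sets of Dlat gave 0.39 (SE 0.24) and 0.04 (SE 0.17) at 25 mM and were not called at either glucose level in the main fit. The brighter of these other probe sets was higher in low-18S cultures by 0.59 (SE 0.13) within groups. At 5 mM it gave 0.26 (SE 0.24) and passed with the 18S block (0.45, limma adjusted p = 0.0304).

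**Figure D2:**
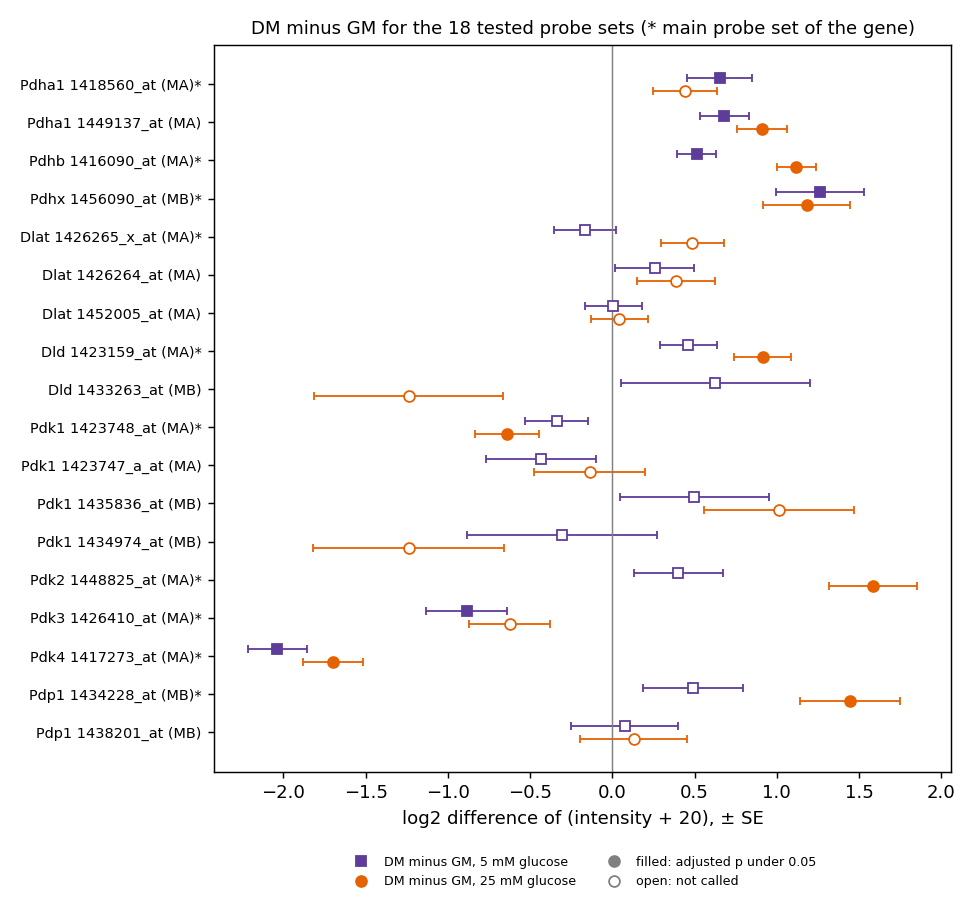
Difference DM minus GM on the log2(intensity + 20) scale with its standard error for the 18 tested probe sets, squares at 5 mM and circles at 25 mM glucose; filled symbols passed an adjusted p of 0.05. Pdk4 is the member farthest below 0 at both glucose levels (-2.04 and -1.70), and Pdk2 (1.59) and Pdp1 (1.45) are farthest above it at 25 mM.

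Among the kinases, Pdk4 fell in DM at both glucose levels and Pdk2 rose at 25 mM. Pdk4 (Entrez 27273, chromosome 6, 5483351 to 5496278) read 49.1, 45.3 and 45.3 in DM at 25 mM, against 153.1, 235.8 and 206.7 in GM at 25 mM, and 32.5, 33.4 and 40.4 in DM at 5 mM, against 202.8, 244.0 and 178.3 in GM at 5 mM. All 6 DM cultures lay below all 6 GM cultures. The falls were -1.70 (SE 0.18, adjusted p = 4.67e-06) at 25 mM and -2.04 (SE 0.18, adjusted p = 8.56e-07) at 5 mM, equal to factors of 3.24 and 4.10 on the shifted scale. Pdk4 was called in each of the alternatives tried, and the block on the 18S control left the falls at -1.72 and -2.02.

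Pdk2, the kinase found in most tissues (Entrez 18604, chromosome 11, 95026258 to 95041371), read 75.2, 62.3 and 81.5 in DM at 25 mM, against 6.70, 5.33 and 23.5 in GM at 25 mM. In DM at 5 mM it read 40.9, 78.5 and 52.1, against 45.9, 43.5 and 24.8 in GM at 5 mM. The groups were apart at 25 mM and overlapped at 5 mM. It rose by 1.59 (SE 0.27, adjusted p = 0.000348) at 25 mM, and the difference of 0.40 (SE 0.27, adjusted p = 0.306) at 5 mM did not pass. With the 18S block the differences were 1.44 (limma adjusted p = 0.000252) at 25 mM and 0.55 (0.0999) at 5 mM. Its group means were 73.0 in DM and 11.8 in GM at 25 mM, and 57.2 and 38.1 at 5 mM. Pdk2 thus passed the filter on MA, 35.5 for the mean of the 12 arrays, through the DM cultures, where it is high. The GM values at 25 mM are among the dimmest of the tested members, and the rise was 2.79 with a pseudocount of 1 and 0.86 with 64.

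The starts of both genes are shown because these kinases moved in opposite directions at 25 mM. Each line gives the 250 bases before an annotated start, from the RefSeq promoter table of GRCm38.p6, read on the gene's strand, for Pdk4 chr6:5496279-5496528 and for Pdk2 chr11:95041372-95041621, both on the minus strand. Capitals mark matches, on either strand, to CANNTG (the E-box bound by MyoD family factors, among others) or to CCAAT. Also searched were the estrogen-related receptor site AAGGTCA and the FoxO site TGTTTAC.
Pdk4: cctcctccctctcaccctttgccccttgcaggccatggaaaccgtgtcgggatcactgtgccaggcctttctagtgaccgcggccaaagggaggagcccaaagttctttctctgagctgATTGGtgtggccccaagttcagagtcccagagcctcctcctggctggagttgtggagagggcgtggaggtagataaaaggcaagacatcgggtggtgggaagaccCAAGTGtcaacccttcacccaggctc
Pdk2: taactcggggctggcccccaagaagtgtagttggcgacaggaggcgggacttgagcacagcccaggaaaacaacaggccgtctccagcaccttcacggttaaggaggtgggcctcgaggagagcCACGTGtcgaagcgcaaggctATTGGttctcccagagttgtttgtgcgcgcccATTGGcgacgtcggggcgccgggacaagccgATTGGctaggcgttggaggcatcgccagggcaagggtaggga
The Pdk4 window holds 1 E-box, starting 26 bases before the start site, and 1 CCAAT box, and the Pdk2 window printed, the one farther upstream, holds 1 E-box and 3 CCAAT boxes. The table has a second Pdk2 start, whose window (chr11:95040876-95041125, not printed) holds 0 matches to any of the 4 motifs. An E-box of this form is found in 66.2% and a CCAAT box in 33.9% of the 32841 windows of this length in the table, and 2.79% hold 3 or more CCAAT boxes. Among the other members, the Pdhb window also holds 3 CCAAT boxes, and those of Pdk3 and Dld hold 1 each. AAGGTCA and TGTTTAC, present in 4.08% and 3.17% of windows, are in neither of the printed windows. No E-box overlapped a CCAAT box in the promoters of the members, 9 of which matched the table.

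Pdk2 and Pdk4 were measured on the same MA arrays, so their log2 difference was also taken within each array. Its size carries the brightness of 2 different probe sets and only its shifts between groups can be read; with 20 added to each value it still depends on array scaling and on that pseudocount, most of all in GM at 25 mM, where Pdk2 read 5.33 to 23.5. Pdk2 minus Pdk4 was 0.45 ± 0.37 in DM at 5 mM, 0.48 ± 0.15 in DM at 25 mM, -1.99 ± 0.20 in GM at 5 mM and -2.81 ± 0.49 in GM at 25 mM (SD, n = 3 each). Each of the 6 DM cultures, at 0.22 to 0.88, was above each of the 6 GM cultures, at -3.34 to -1.76. The pair was taken with the changes of both genes known. Pdk4 alone already lay lower in all 6 DM cultures than in all 6 GM cultures, and the Pdk2 difference at 5 mM did not pass. The separation is thus not a result apart from that of Pdk4.

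**Figure D3:**
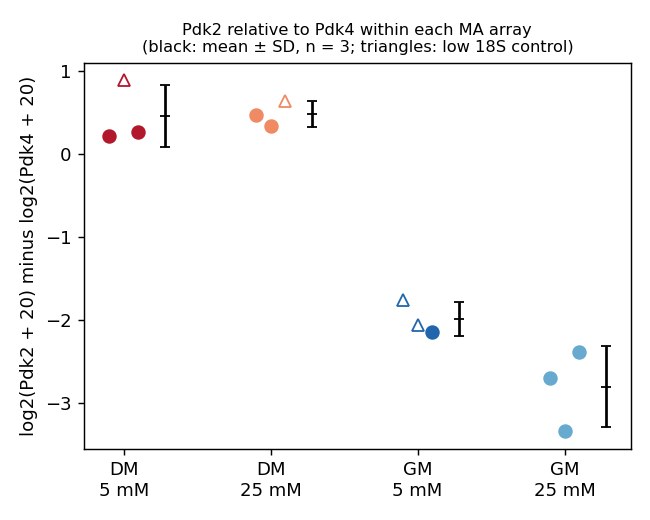
Log2(Pdk2 + 20) minus log2(Pdk4 + 20) within each MA array, by medium and glucose; points are cultures (open triangles low 18S control) and black marks are the mean ± SD of 3 cultures. DM cultures at 0.22 to 0.88 do not overlap GM cultures at -3.34 to -1.76, and the height of the axis has no meaning of its own. Pdk4 alone also parts the DM from the GM cultures.

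Pdk3 (Entrez 236900, chromosome X, 93764616 to 93832150) was also lower in DM. It read 78.4, 98.4 and 50.4 in DM at 5 mM, against 155.1, 189.1 and 121.3 in GM at 5 mM, and 47.3, 78.6 and 97.2 in DM at 25 mM, against 119.7, 103.4 and 144.8 in GM at 25 mM. The groups did not overlap at either glucose level. The fall at 5 mM was -0.89 (SE 0.24, adjusted p = 0.0132), and the difference at 25 mM was -0.62 (SE 0.24, adjusted p = 0.0607). The call at 5 mM was lost without replicate 3 of DM at 5 mM (adjusted p = 0.0677), without replicate 2 of GM at 5 mM (0.0682) and from the high-18S cultures alone (0.136), in a range of 0.00108 to 0.136. The difference at 25 mM passed with the 18S block (-0.79, adjusted p = 0.00386), from the high-18S cultures alone (-0.80, 0.0238), and without replicate 2 (0.0477) or 3 (0.0456) of DM at 5 mM or replicate 3 of DM at 25 mM (0.0306), and with array weights (0.0153), in a range of 0.00386 to 0.238.

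Pdk1, the kinase known as a target of hypoxia-inducible factor, has 4 probe sets that did not move alike. The main one, on MA, read 124.2, 82.2 and 73.1 in DM at 25 mM, against 119.1, 186.0 and 161.6 in GM at 25 mM, where 1 DM culture lay within the GM range. In DM at 5 mM it read 107.5, 102.5 and 124.4, against 159.6, 144.9 and 133.9 in GM at 5 mM, all of them higher. The difference was -0.64 (SE 0.19, adjusted p = 0.0182) at 25 mM and -0.34 (SE 0.19, adjusted p = 0.222) at 5 mM. The call at 25 mM was lost without replicate 2 (adjusted p = 0.0613) or 3 (0.0746) of DM or replicate 2 (0.0799) or 3 (0.0563) of GM, from the high-18S cultures alone (0.0901) and with median centring (-0.44, adjusted p = 0.0833), in a range of 0.00542 to 0.0901.

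The other probe sets of Pdk1 were not called. The brighter one on MB read 176, 244 and 259 in DM at 25 mM, against 97.3, 120.7 and 86.4 in GM at 25 mM, the opposite order, with a difference of 1.01 (SE 0.45, adjusted p = 0.236). It read 213.6 and 276.2 in the low-18S cultures of GM at 5 mM and 45.6 in the remaining one, and the low-18S cultures were higher by 1.01 (SE 0.31) within groups. For the second one on MA the difference at 25 mM was -0.14 (SE 0.34, limma adjusted p = 0.778). For the dimmer one on MB it was -1.24 (SE 0.58, adjusted p = 0.262). That MB probe set passed the filter of its design, 63.7, through GM at 25 mM, where it averaged 135.4. Its other group means were 45.4 to 65.1. The direction for Pdk1 thus depends on the probe set.

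**Figure D4:**
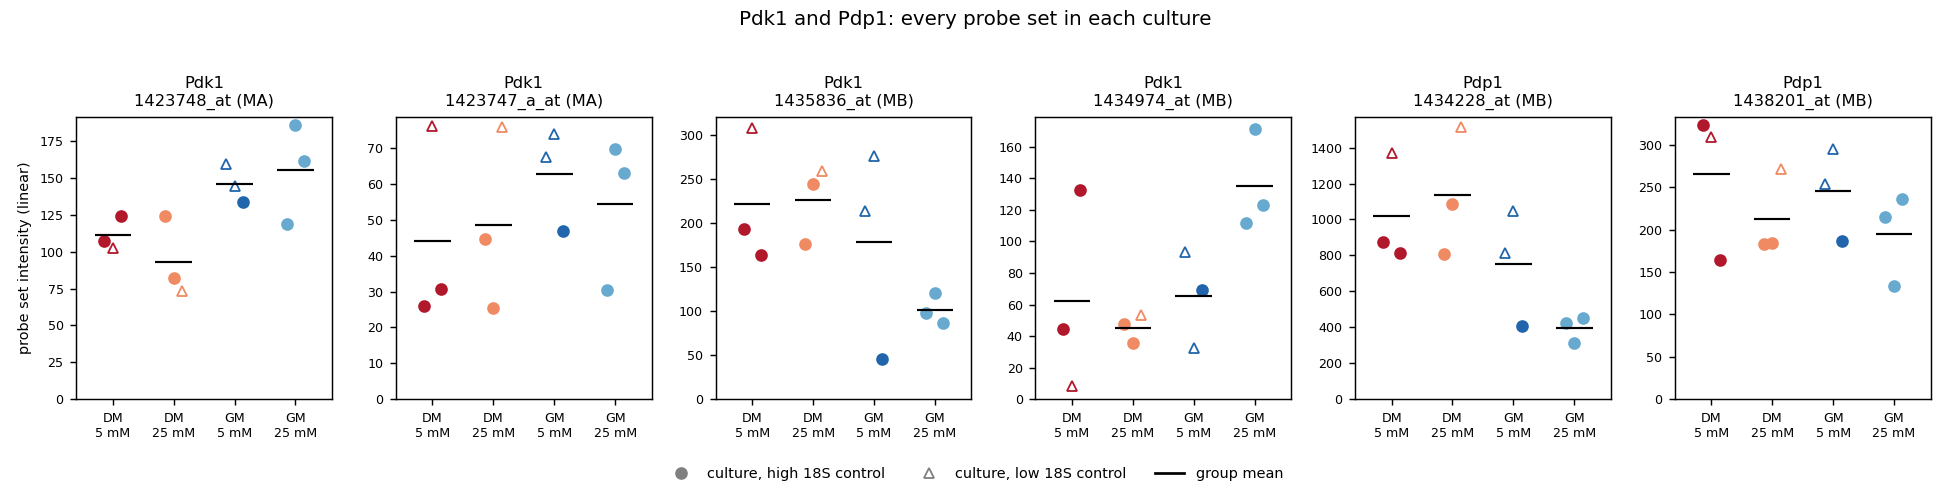
Intensity of each probe set of Pdk1 and Pdp1 in each culture (linear axes from 0); circles are high-18S and open triangles low-18S cultures, lines are group means. Within their groups the low-18S cultures read highest on the brighter MB probe set of Pdk1 and on the main probe set of Pdp1, and the Pdk1 probe sets order DM and GM differently.

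Pdp1 encodes a catalytic subunit of pyruvate dehydrogenase phosphatase that calcium stimulates in muscle (Entrez 381511, chromosome 4, 11958183 to 11966450). Its main probe set read 808, 1088 and 1512 in DM at 25 mM, against 423, 313 and 451 in GM at 25 mM. In DM at 5 mM it read 872, 1372 and 815, against 811, 1045 and 405 in GM at 5 mM. The groups were apart at 25 mM and overlapped at 5 mM, where the cultures of GM that read 811 and 1045 are the low-18S ones. The rise at 25 mM was 1.45 (SE 0.30, adjusted p = 0.00438) and 1.17 with the 18S block (adjusted p = 0.000501), and it lost its call without the trend in eBayes (adjusted p = 0.0524), in a range of 0.000501 to 0.0524. At 5 mM the difference of 0.49 (SE 0.30, adjusted p = 0.499) passed with the block (0.77, adjusted p = 0.0173) but not from the high-18S cultures alone (1.02, adjusted p = 0.119), in a range of 0.0173 to 0.919. A second, dimmer probe set of Pdp1 gave 0.13 (SE 0.33) at 25 mM and 0.07 (SE 0.33) at 5 mM, neither called.

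Lower glucose was compared within each medium. In DM 0 of the 10 genes was called at 5 mM against 25 mM, where 0.864% of all tested probe sets were, and in GM 0 was called where 0.00369% were. At an unadjusted limma p under 0.05 there were 2 of the 10 main probe sets in DM, Pdhb and Dlat, beside 2178 of all 27081 tested. In GM there were 3, Pdhb, Pdk2 and Pdp1, beside 2405 of the 27081. In DM the Pdk4 cultures at 5 mM (32.5 to 40.4) lay below those at 25 mM (45.3 to 49.1). This difference of -0.27 (SE 0.18, limma adjusted p = 0.720) did not pass. The Pdk4 intervals (95%, not adjusted for multiple testing) ran from -0.65 to 0.12 in DM and from -0.31 to 0.46 in GM, so differences of that size in either direction were not resolved.

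The Pdhb differences had opposite signs in the 2 media, and neither was called. In DM its 3 cultures at 5 mM (1331 to 1480) lay below those at 25 mM (1590 to 1793), a difference of -0.29 (SE 0.12, unadjusted p = 0.0298 and adjusted p = 0.384 by limma). In GM the 5 mM cultures (929 to 1043) lay above those at 25 mM (703 to 858), a difference of 0.32 (SE 0.12, unadjusted p = 0.0170 and adjusted p = 0.431). The interaction, the glucose difference in DM minus that in GM, was -0.61 (SE 0.17, unadjusted p = 0.00274) and did not pass the adjustment (0.165), and it stayed uncalled in the alternatives, from 0.0549 to 0.535.

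Dlat in DM was at 177.3, 305.3 and 193.0 with 5 mM, against 309.6, 326.3 and 361.1 with 25 mM, so the lower glucose cultures lay below the others. The difference was -0.56 (SE 0.19, adjusted p = 0.231), and it passed without replicate 2 of DM at 5 mM, the low-18S culture that read 305.3 (-0.78, adjusted p = 0.0355), in a range of 0.0355 to 0.587. The other probe sets of Dlat gave -0.22 (SE 0.24) and -0.14 (SE 0.17). The interaction for the main one was -0.66 (SE 0.27, adjusted p = 0.359).

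Pdk2 and Pdp1 had their larger glucose differences in GM. Pdk2 there was at 45.9, 43.5 and 24.8 with 5 mM, against 6.70, 5.33 and 23.5 with 25 mM, a difference of 0.89 (SE 0.27, adjusted p = 0.404) with no overlap. The values at 25 mM lie below the filter threshold of MA (35.5), and over the alternatives the difference ran between 0.43 and 1.83, and the interaction between -2.22 and -0.62. The glucose difference was 0.60 with the 18S block and 0.54 from the high-18S cultures alone, and it passed in 1 alternative, array weights (0.98, adjusted p = 0.0314), in a range of 0.0314 to 0.9999. Pdp1 differed by 0.81 (SE 0.30, adjusted p = 0.652) in GM, by 0.25 with the block and by 0.05 from the high-18S cultures alone. The interactions were -1.18 (SE 0.38, adjusted p = 0.251) for Pdk2 and -0.96 (SE 0.43, adjusted p = 0.785) for Pdp1. Across all members, 0 of 10 passed the interaction test, which 0.284% of all tested probe sets did. At an unadjusted limma p under 0.05 there were 4, Pdhb, Dlat, Pdk2 and Pdp1, beside 2493 of all 27081 tested probe sets.

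**Figure D5:**
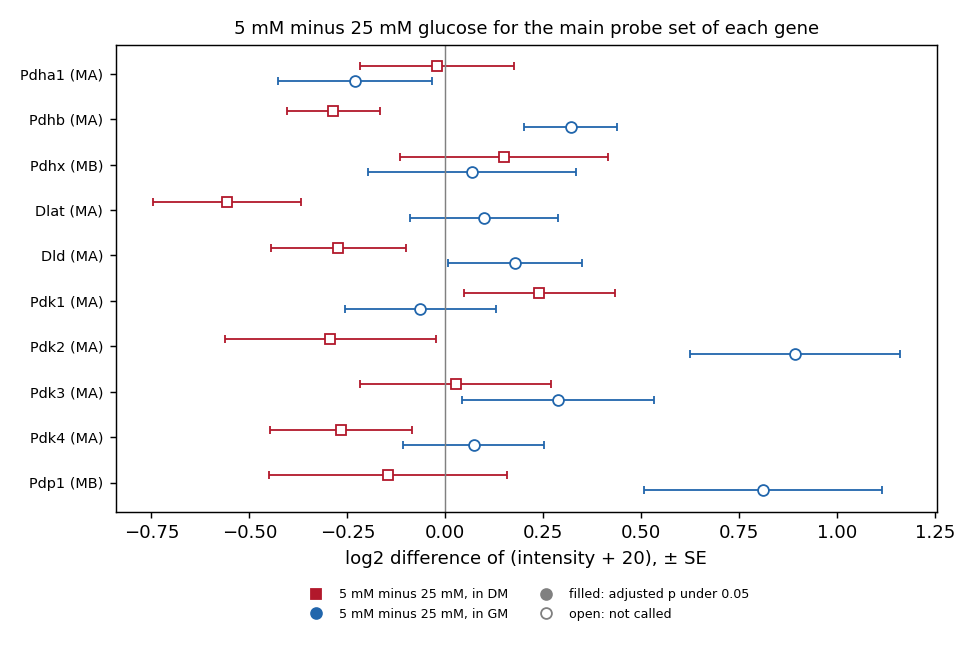
Difference 5 mM minus 25 mM glucose on the log2(intensity + 20) scale with its standard error for the main probe set of each gene, squares in DM and circles in GM; open symbols did not pass an adjusted p of 0.05, which holds for all 20 points. Pdhb lies below 0 in DM (-0.29) and above 0 in GM (0.32), and Pdk2 (0.89) and Pdp1 (0.81) lie farthest from 0, in GM.

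Genes around the complex were counted from 3 lists, with each gene at its brightest tested probe set. Of 11 genes that supply pyruvate or use it elsewhere, 10 were tested. At 25 mM 3 rose in DM and 3 fell, beside 9.83% and 11.5% of all tested probe sets, with a list median of -0.26, and the members named are those with the largest changes. Gpt2, the mitochondrial alanine aminotransferase, read 926, 877 and 989 in DM, against 146.6, 152.2 and 147.6 in GM, a rise of 2.49 (SE 0.11, adjusted p = 5.69e-10). Slc16a1, the monocarboxylate transporter MCT1, which carries lactate and pyruvate across the plasma membrane, fell by 1.33 (SE 0.20). Mpc1, a subunit of the mitochondrial pyruvate carrier, rose by 1.16 (SE 0.30). It read 382.5, 317.5 and 667.6 in DM, against 202.5, 190.8 and 160 in GM. The 667.6 was from the DM culture with a low ribosomal RNA control, and no GM culture at 25 mM had a low one. At the lower glucose level, cultures with a low control also read highest for Mpc1 in both media. How much of its rise goes with this division was not tested. Pkm, pyruvate kinase, fell by 0.88 (SE 0.25).

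At 5 mM 2 genes of that list rose and 2 fell, beside 7.52% and 10.1% of all tested probe sets, with a list median of -0.29. Gpt2 rose by 2.30 (SE 0.11), Pcx, pyruvate carboxylase, rose by 1.07 (SE 0.15), Slc16a1 fell by 1.06 (SE 0.20) and Me2, a malic enzyme of mitochondria, fell by 1.03 (SE 0.24). In neither medium was a gene of this list called for glucose.

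A further list held 10 genes of systems that share the Dld subunit. Beside subunits of related 2-oxoacid dehydrogenases it held Gcsh and Gldc of the glycine cleavage system. It also held Bckdk and Ppm1k, the kinase and phosphatase of the branched-chain complex. Of these 10 genes 8 were tested. At 25 mM Dbt, the core of the branched-chain complex, rose by 1.11 (SE 0.28, adjusted p = 0.00639) and Dlst, that of the 2-oxoglutarate complex, by 0.54 (SE 0.12, adjusted p = 0.00371); 0 fell, beside 9.83% higher and 11.5% lower among all tested probe sets, and the list median was 0.13. At 5 mM 0 of 8 was called, beside 7.52% higher and 10.1% lower (list median -0.19). Of 8 further phosphatase and accessory genes 5 were tested and 0 was called in any comparison. Pdp2, the other catalytic phosphatase subunit, singled out here after its values were seen, averaged 281 ± 10.9 in DM and 204.1 ± 48.7 in GM at 5 mM, and 187 ± 27.6 in DM and 159.9 ± 32.2 in GM at 25 mM (SD, n = 3 each). Its differences DM minus GM were 0.45 (SE 0.29, adjusted p = 0.527) at 5 mM and 0.21 (SE 0.29, adjusted p = 0.787) at 25 mM, and 5 mM minus 25 mM in DM it was 0.55 (SE 0.29, adjusted p = 0.906).

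The genes with the pattern most like a member over the 12 arrays were found by Pearson correlation on the same array design, as a description. All arrays share the same 4 groups, so such values mostly follow the step between media. For Pdk4 they were Ier3 (r = 0.99), Selenoh (0.99) and Sqor (0.99) among 8116 genes. For Pdk2 they were Atp6v1d (0.98), Mapk8 (0.97) and Eif5 (0.97), and for Pdhb Sgcb, a sarcoglycan of muscle membranes (0.98), Ak1 (0.98) and Dnaja2 (0.98).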

How the data were processed

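The 24 arrays hold 12 cultures on 2 designs. Each file holds linear intensities per probe set as deposited; the software that produced them is not given in the sources used here. The 2% trimmed mean was near 150 on each array (150.05 to 150.07 on MA, 150.02 to 150.03 on MB), so intensities had been scaled before deposit and were kept. Probe sets were named through the platform annotation, with symbols updated by Entrez ID from RefSeq (GRCm38.p6).

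Each design was fitted in limma 3.58.1 (R 4.3.3) on log2(intensity + 20), leaving out 64 control probe sets and those at or below the 40th percentile of mean intensity (35.5 on MA, 63.7 on MB), with 4 group means, eBayes with trend, 8 residual degrees of freedom and Benjamini-Hochberg adjustment within a design. Tests were two-sided. The fit was tested on simulated data. No label says that cultures were separate, so the spread behind each p-value is that of these samples and may be technical, and the number of arrays limits the precision. No pair of arrays was identical.

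Members, lists, named-gene rule (all members, and up to 4 called genes with the largest change per list), alternatives and the 18S split were chosen with earlier results of these data known. Samples were not paired in the main fit. Alternatives were other pseudocounts, filters and normalizations, no trend, array weights, only the arrays compared, blocks, the high-18S cultures and leaving out each culture.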

Additional observations from a re-analysis of the deposited data

How the results depend on the processing

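The count of member genes called stayed within 1.5 times its value, or at 0, under most alternatives. For DM against GM at 25 mM it was 7, and 6 to 10 over the alternatives. Median centring used array medians taken before the intensity filter. It raised the Pdhb difference on MA from 1.12 to 1.32, and the median over all tested probe sets from -0.09 to 0.07. With centring the count was 7 higher and 1 lower in place of 5 and 2. For DM against GM at 5 mM it was 5, fell to 2 from the high-18S cultures alone, which include a single GM culture at 5 mM, and was 3 to 6 when single cultures were left out, with 3 without replicate 2 of GM at 5 mM. Array weights called 1 gene, Pdk2, for glucose in GM and 1 for the interaction (adjusted p = 0.0499). Leaving out single cultures gave 0 to 1 for glucose in DM, the 1 being Dlat, and 0 in GM and for the interaction. With the replicate block the counts were 8 and 5 for the medium at 25 and 5 mM and 0 for the other comparisons; same-numbered cultures share only a number (5 of 24 correlations of their deviations over 0.1, between -0.465 and 0.521).

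For the medium, 0 of the 10 main probe sets changed sign under any processing alternative, but other probe sets of the same gene gave opposite signs: Dlat at 5 mM (0.26 and 0.0064 in place of -0.17), Dld at 25 mM (-1.24 in place of 0.91) and Pdk1 (1.01 at 25 mM and 0.50 at 5 mM). The cause was not tested. For glucose, the sign of the main probe set changed in at least 1 alternative for 7 of 10 genes in GM and 4 in DM, and for the interaction for 3, none of them called in any alternative, so no direction is given for these genes. The call of Pdp1 at 25 mM is not shared by its second probe set. Pdk2 was left out by the filter at the 60th percentile. The fit on only the arrays compared gives no interaction of its own. Low signal limits Pdk2 most, since its rise at 25 mM moved with the pseudocount. Over all probe sets, the count for glucose was 1 in GM (860 with array weights, 0 to 5 without single cultures) and 234 in DM (613 with the 18S block, 112 on only the arrays compared, 129 to 247 without single cultures), and for the interaction 77 (331 with array weights, 130 with the 18S block, 17 from the high-18S cultures, 31 with the replicate block, 42 without trend, 28 to 103 without single cultures); for the medium at 5 mM it was 4777, and 2799 from the high-18S cultures.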

Other observations

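Factors known to act on Pdk genes were also read. Of 14 such genes 11 were tested, and in DM against GM 3 rose and 3 fell at 25 mM (9.83% and 11.5% of all tested probe sets), and 1 rose and 3 fell at 5 mM (7.52% and 10.1%), with medians of -0.11 and -0.18. Foxo1, a forkhead factor known to induce Pdk4 in muscle, was higher in DM at both glucose levels. It rose by 0.67 (SE 0.16, limma adjusted p = 0.00488) at 25 mM and 0.47 (SE 0.16, adjusted p = 0.0415) at 5 mM. Pdk4 was lower in DM, and a link between Foxo1 and Pdk4 was not tested. Ppard, a receptor for fatty acids, averaged 346 ± 139.6 in DM and 637.5 ± 85.7 in GM at 25 mM (SD, n = 3 each), a fall of -0.91 (SE 0.26, adjusted p = 0.0360). Cebpb fell by 1.25 (SE 0.18) at 5 mM and 0.65 (SE 0.18) at 25 mM, and Rxra, the partner of the PPAR receptors, fell by 0.85 (SE 0.16) at 5 mM. Hif1a, which acts on Pdk1, fell by 0.55 (SE 0.18) at 5 mM, where Pdk1 was not called. At 25 mM, where the main probe set of Pdk1 was called, Hif1a differed by -0.02 (SE 0.18, limma adjusted p = 0.939). A link between Hif1a and Pdk1 was not tested. Ppargc1b rose by 0.70 (SE 0.23) at 25 mM. The coactivator Ppargc1a, well known in oxidative muscle and singled out after its values were seen, failed the filter with all its probe sets, which read at most 47.6. No gene of this list was called for glucose or the interaction.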
